A study of Mus musculus with 8 samples.

Results

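ERRα (estrogen-related receptor α) peaks were examined at 9 genes that keep ATP and oxygen at hand in contracting muscle: the creatine kinases *Ckm*, *Ckb*, *Ckmt1* and *Ckmt2*, the creatine synthesis enzymes *Gamt* and *Gatm*, adenylate kinase *Ak1*, AMP deaminase *Ampd1* and myoglobin, *Mb*. They were picked by symbol from 21883 RefSeq protein-coding genes. An interval was counted for a gene when the annotation in the lists named that gene and placed it at most 20 kb from the transcription start site (TSS). Skeletal muscle (gastrocnemius and soleus) and liver came from male mice aged 2 to 3 months on a C57BL/6N background, either wild-type (WT) or ERRα 3SA, which carry phospho-deficient ERRα with 3 phosphosites of its amino terminal domain mutated. Per the study's methods, the mice were sacrificed at zeitgeber time 9, and the labels name no treatment. Each muscle library came from 5 pooled mice and each liver library from 2, and each genotype and tissue has 1 ERRα ChIP-seq library and 1 peak list. No difference between lists therefore has a replicate check, and none was tested.

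ERRα is an orphan nuclear receptor that binds the ERR response element (ERRE), written TCAAGGTCA, and is known for controlling genes of mitochondrial energy metabolism in muscle, heart and liver. Creatine kinases move the high-energy phosphate between ATP and creatine: *Ckm* is the cytosolic form of muscle and *Ckb* that of brain and many other tissues, and *Ckmt2* (sarcomeric) and *Ckmt1* (ubiquitous) are their mitochondrial counterparts. Adenylate kinase recovers ATP from ADP, AMP deaminase removes the AMP that this leaves, and myoglobin stores oxygen in muscle fibres.

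The WT muscle list held 25427 peaks, the ERRα 3SA muscle list 50647, the WT liver list 21813 and the ERRα 3SA liver list 29040. Within 20 kb of a TSS, the counts were 12999, 23571, 11216 and 16104. Read depth was not part of the lists and is unknown here. Scores of different lists were not compared, so each interval is given by its rank in its own list and by the top percentage that this rank marks, with the best rank for tied scores. The lowest score, 30, was shared by 33.6% of WT muscle and 35.2% of ERRα 3SA muscle peaks, and such intervals are called lowest-scoring below. Of 10 skeletal muscle genes used as markers, 7, 9, 5 and 8 had a peak within 20 kb in the lists in the order above, and of 10 liver genes 3, 3, 3 and 7 did. Peaks do not measure transcription, and several of these markers, such as *Alb*, had a peak in no list.

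More intervals were annotated to the members in muscle than in liver, and the highest-ranked ones were in muscle. Of the 62 intervals annotated to them, 58 lay within 20 kb, 45 in muscle and 13 in liver. The muscle lists thus held 77.6% of the members' intervals, and they held 57.2% of all 63890 peaks within 20 kb. In WT muscle, 5 of 9 members had an interval (*Ckm*, *Ckmt2*, *Gamt*, *Ak1* and *Mb*), where 34.5% of all protein-coding genes had one. In ERRα 3SA muscle, 7 of 9 did (*Ckm*, *Ckb*, *Ckmt1*, *Ckmt2*, *Ak1*, *Ampd1* and *Mb*), against a background of 48.0%. Liver had 4 of 9 in each genotype, *Ckm*, *Gamt*, *Ak1* and *Mb* in WT and *Ckmt2*, *Gamt*, *Ak1* and *Mb* in ERRα 3SA, with 30.0% and 37.7% of all genes. With only 9 genes, the counts in both tissues lie within a few genes of these shares, and no difference was tested. In pooled tissue, binding in more nuclei and stronger binding per nucleus cannot be told apart.

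Several members had intervals near the top of the muscle lists. The best interval was in the top 5% of the list for 4 members in WT muscle (*Ckm*, *Ckmt2*, *Ak1* and *Mb*) and for 5 in ERRα 3SA muscle (the same 4 and *Ampd1*), whereas 3.15% and 5.5% of all genes had an interval that high. In liver no member reached the top 5%, where 2.7% (WT) and 3.49% (ERRα 3SA) of all genes did. The 10 skeletal muscle markers had 4 and 6 genes in the top 5% of the WT and ERRα 3SA muscle lists and 0 in both liver lists, and whether the members' counts go with this was not tested. *Ak1* and *Mb* had intervals in all 4 lists, as 12.5% of all genes had, and *Gatm* had none in any list, as 33.2% of all genes had not.

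**Figure D1:**
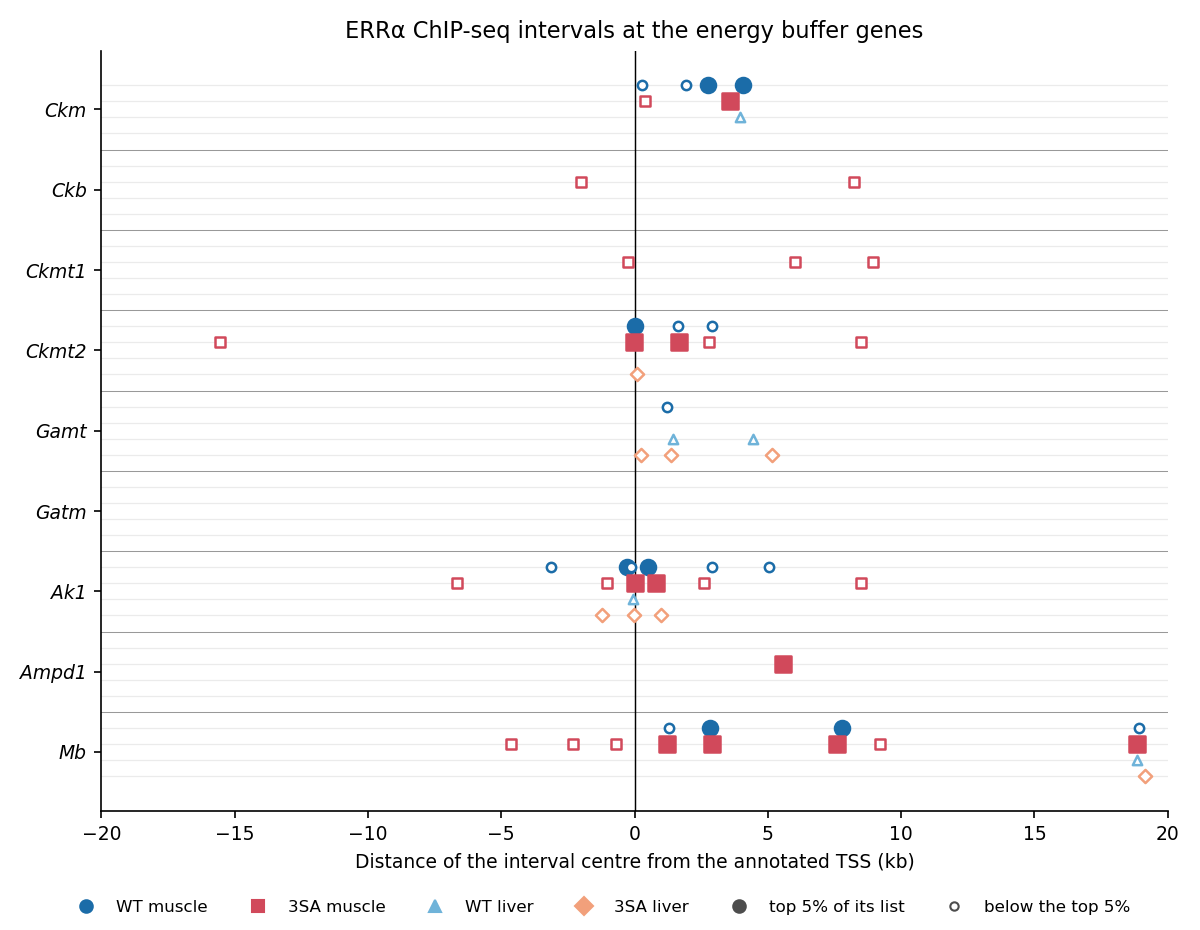
Intervals within 20 kb of the TSS at the 9 members, 1 lane per list, by distance of the interval centre from the annotated TSS in kb; filled large symbols mark intervals in the top 5% of their list. The filled symbols are all in muscle lanes, 7 in WT and 10 in ERRα 3SA, and lie at *Ckm*, *Ckmt2*, *Ak1*, *Mb* and, in ERRα 3SA alone, *Ampd1*.

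*Ckm*, on chromosome 7 of mm10 (RefSeq transcript NM_007710, plus strand, TSS at 19411094), had 4 intervals in the muscle of WT mice and 2 in that of ERRα 3SA mice, and 1 and 0 in their livers. The WT muscle intervals lay at 273, 1925, 2756 and 4063 bp downstream of the TSS and ranked 2194 (top 8.63%), 16894 (top 66.4%, lowest-scoring), 549 (top 2.16%) and 714 (top 2.81%). The ERRα 3SA muscle intervals lay at 403 bp (rank 4392, top 8.67%) and 3589 bp (rank 347, top 0.685%). The 2 strongest WT intervals, chr7:19413586-19414114 in intron 1 and chr7:19414505-19415810 over the end of exon 3, both fell inside the single ERRα 3SA interval chr7:19413537-19415830, which is 2294 bp wide. Their centres were 833 and 474 bp from its centre, so by the rule for shared peaks (centres at most 300 bp apart) only the interval at the TSS was shared by the genotypes at *Ckm*. The lowest-scoring WT interval, at 1925 bp, had no ERRα 3SA interval over it. Farther along *Ckm*, other intervals were annotated to *A930016O22Rik* and so were not counted for *Ckm*. They lay at 8099 and 10196 bp in WT muscle, 6253 and 8390 bp in ERRα 3SA muscle and 5898 bp in WT liver. The best by top percentage was at rank 18857 (top 37.2%) in ERRα 3SA muscle.

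The WT liver interval of *Ckm*, chr7:19414866-19415237, was weak (rank 8204, top 37.6%) but lay within the WT muscle interval over the end of exon 3, and its centre coincided with the middle base of an ERRE at 3957 bp, a distance of 0 bp. This ERRE spans the end of exon 3, with 5 bases in the coding exon and 4 in intron 3. Another ERRE, at 2634 bp in intron 1, lay in both muscle lists. The 300 bp around the centre of the WT liver interval are shown because they hold the ERRE that 3 of the 4 lists cover at *Ckm*, with the ERRE in capitals; this stretch was added after the intervals were seen, and is chr7:19414901-19415200 of the RefSeq genome GRCm38.p6, forward strand.
*Ckm*, WT liver interval: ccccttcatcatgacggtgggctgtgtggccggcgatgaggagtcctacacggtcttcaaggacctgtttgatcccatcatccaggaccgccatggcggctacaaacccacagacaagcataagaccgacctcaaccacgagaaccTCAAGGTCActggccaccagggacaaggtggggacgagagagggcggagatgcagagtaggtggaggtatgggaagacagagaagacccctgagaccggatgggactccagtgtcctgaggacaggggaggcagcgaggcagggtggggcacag

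The centre of the wide ERRα 3SA interval held none of the ERRE-type letters, and the lists annotate it to a satellite repeat. Its 300 bp, chr7:19414533-19414832 on the forward strand, are shown because they belong to the best-ranked *Ckm* interval of any list; no capitals occur.
*Ckm*, ERRα 3SA muscle interval: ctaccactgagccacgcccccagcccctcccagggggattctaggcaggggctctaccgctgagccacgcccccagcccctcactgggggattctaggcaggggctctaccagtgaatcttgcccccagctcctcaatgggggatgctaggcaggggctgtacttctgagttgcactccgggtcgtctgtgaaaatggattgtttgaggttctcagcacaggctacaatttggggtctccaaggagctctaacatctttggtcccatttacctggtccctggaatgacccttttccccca

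*Ckmt2*, on chromosome 13 (NM_198415, minus strand, TSS at 91876885), was the mitochondrial creatine kinase with strong intervals, at its promoter and in intron 1. WT muscle listed 3 intervals, which lay at 28, 1630 and 2901 bp and ranked 407 (top 1.6%), 2194 (top 8.63%) and 15869 (top 62.4%). In ERRα 3SA muscle, 5 intervals lay at -15566, -7, 1653, 2807 and 8487 bp and ranked 31556, 336 (top 0.663%), 520 (top 1.03%), 19604 and 32215. All 3 WT intervals had an ERRα 3SA partner, with centres 35, 23 and 94 bp apart. WT liver had no interval here, and ERRα 3SA liver had 1 at 94 bp, among the low scores of its list (rank 23394, top 80.6%).

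In 3 lists, both muscle lists and ERRα 3SA liver, the promoter interval of *Ckmt2* covered an ERRE 63 bp downstream of the TSS, with its centre at -35, -70 and 31 bp from the interval centres on the forward strand. As at *Ckm*, this ERRE spans the end of an exon, here 5 bases in the untranslated part of exon 1 and 4 in intron 1 on the gene's strand. The interval at 8487 bp covered another ERRE in intron 1, in ERRα 3SA muscle only. Upstream of the transcribed bases, the best-ranked interval centre held the E-box letters CAGCTG and no ERRE. Those 156 bases, chr13:91876886-91877041 on the forward strand, are shown because the best-ranked *Ckmt2* interval of any list is centred there.
*Ckmt2*, promoter: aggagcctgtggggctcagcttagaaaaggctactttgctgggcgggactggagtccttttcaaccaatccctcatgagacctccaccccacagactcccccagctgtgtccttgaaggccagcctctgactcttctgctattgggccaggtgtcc

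The other creatine kinases had intervals in ERRα 3SA muscle alone. *Ckb* (chromosome 12, NM_021273, minus strand, TSS at 111672338) had 2, both between genes, at -2026 bp (rank 19604, top 38.7%) and 8219 bp (rank 11987, top 23.7%). *Ckmt1* (chromosome 2, NM_009897, plus strand, TSS at 121358610) had 3, at -256 bp (lowest-scoring), 6016 bp (rank 7851, top 15.5%) and 8934 bp (lowest-scoring), the last inside the neighbouring gene *Strc*. The promoter interval of *Ckmt1* reached an ERRE at its edge, -203 bp from the centre. This ERRE lies upstream of the TSS of NM_009897, but in intron 1 of another transcript, NM_001355069 (TSS at 121357776). None of these 5 intervals overlapped a WT muscle interval. Of all ERRα 3SA muscle peaks within 20 kb, only 16.9% had bases in common with one, so the lack of overlap was usual in that list. Around *Ckb*, all 4 lists had an interval within 20 kb by position that was annotated to the neighbour *Trmt61a*, the best at rank 4057 (top 16.0%) in WT muscle.

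The 8 ERREs within 20 kb of a member's TSS that lay inside an interval of any list are shown with 10 bases on either side. They are shown because called intervals, of a member or of a neighbour, covered these letters. The *Ak1* ERRE, 11277 bp from the nearest TSS, lay only in an ERRα 3SA muscle interval annotated to the neighbour *Eng* (rank 19604, top 38.7%). Positions are on the forward strand of GRCm38.p6, where TGACCTTGA is the ERRE read from the other strand, and capitals mark the ERRE.
*Ckm* intron 1, chr7:19413714-19413742: tagatgaagaTGACCTTGAactgctggga
*Ckm* end of exon 3, chr7:19415037-19415065: cacgagaaccTCAAGGTCActggccacca
*Ckmt1* intron 1, chr2:121358168-121358196: taggggaaggTGACCTTGAggctgtgctg
*Ckmt2* intron 1, chr13:91868409-91868437: atgttcattcTCAAGGTCAtggaagccca
*Ckmt2* end of exon 1, chr13:91876808-91876836: agcatctgacTGACCTTGAagctggagga
*Gamt* downstream, chr10:80255551-80255579: atctcggagtTCAAGGTCAgcttgaacta
*Gamt* upstream, chr10:80263928-80263956: caagggaggcTGACCTTGAattcccagtc
*Ak1* downstream, chr2:32640763-32640791: tgcggctacaTGACCTTGAtctcccagag

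Creatine is made in 2 steps, by *Gatm* and then *Gamt*. *Gamt* (chromosome 10, NM_010255, minus strand, TSS at 80261012) was the member listed more often in liver than in muscle. WT muscle had 1 interval, at 1209 bp (rank 6260, top 24.6%), and ERRα 3SA muscle had 0. WT liver had 2, at 1446 bp (rank 16370, top 75.0%) and 4428 bp (rank 8204, top 37.6%), and ERRα 3SA liver had 3, at 239 bp (rank 23394), 1351 bp (rank 10935, top 37.7%) and 5152 bp (rank 12650, top 43.6%). The pair in the gene body was shared in liver, with centres 95 bp apart, and the WT liver interval lay 237 bp from the WT muscle one.

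The count of 0 for *Gamt* in ERRα 3SA muscle rested in part on the gene to which an interval was assigned. That list had an interval at chr10:80254020-80256307, 5849 bp from the TSS of *Gamt*, that covered all 885 bp of the ERRα 3SA liver interval annotated to *Gamt* and the same ERRE, but its centre was 5711 bp from the TSS of *Ndufs7* and it was annotated to that gene. The gene body interval of WT muscle had no ERRα 3SA muscle interval over it. *Ndufs7*, a complex I subunit whose TSS lies within 20 kb of *Gamt*, carried some of the highest-ranked intervals of each list: 32 in WT muscle (top 0.126%), 49 in ERRα 3SA muscle (top 0.0967%), 112 in WT liver (top 0.513%) and 81 in ERRα 3SA liver (top 0.279%), at 11377, 11510, 11466 and 11633 bp from the TSS of *Gamt*. *Dazap1*, the neighbour on the other side, also had a promoter interval in all 4 lists, from rank 1010 (top 3.48%) in ERRα 3SA liver to rank 9931 (top 39.1%) in WT muscle.

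*Gatm* (chromosome 2, NM_025961, minus strand, TSS at 122611277) had no interval within 20 kb in any list. Just outside the limit, ERRα 3SA muscle had 1 at 20371 bp (rank 19604, top 38.7%) and another at 35545 bp (rank 3101, top 6.12%). By position, an ERRα 3SA liver interval at the start of the neighbour *Spata5l1* lay -19828 bp from the TSS of *Gatm*. The intervals nearest the limit on its inner side were those of *Mb* between 18846 and 19151 bp, and the others just outside were 1 of *Ampd1* at 20990 bp in ERRα 3SA muscle and 1 of *Ckmt2* at -33016 bp in WT muscle.

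*Ak1* (chromosome 2, plus strand) has 4 RefSeq coding transcripts with TSSs from 32621758 to 32629500, and its strongest interval in each muscle list sat at the TSS of NM_001198792, at 32628390. WT muscle had 6 intervals. The promoter interval, at -274 bp, ranked 216 (top 0.849%) and another in intron 1 of NM_001198791, at 503 bp, ranked 862 (top 3.39%). The other 4, at -3140, -131, 2888 and 5040 bp from their nearest TSS, ranked 6260 to 16894. Of these, all but the interval at 2888 bp were lowest-scoring. ERRα 3SA muscle also had 6, with the promoter interval at 30 bp at rank 276 (top 0.545%) and the intron interval at 822 bp at rank 733 (top 1.45%). The others, at -6648, -1043 (lowest-scoring), 2591 and 8476 bp, ranked 7648 to 32824. An interval count of 6 or more was reached by 0.238% of all genes in WT muscle and 1.29% in ERRα 3SA muscle. These counts include lowest-scoring intervals and those of every annotated TSS of a gene.

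The promoter of *Ak1* was listed in both tissues and both genotypes. WT liver had 1 interval, at -56 bp (rank 16370, top 75.0%), and all of its 300 bp were covered by the promoter intervals of the other 3 lists. ERRα 3SA liver had 3, at -1219 bp (rank 23394), 997 bp (rank 15499, top 53.4%) and -15 bp (rank 9882, top 34.0%). In muscle the promoter pair had 1271 bp in common, all of the WT interval, but centres 304 bp apart, just outside the rule for shared peaks, and the intron pair was 319 bp apart with 1241 bp in common. The pair shared by rule was the one at 2888 and 2591 bp, 297 bp apart. All 4 promoter intervals held the ERRE core AAGGTCA at chr2:32628300-32628306, without the bases before it that complete an ERRE. It is in capitals in the 120 bases up to the TSS, chr2:32628270-32628389 on the forward strand, which are shown as the promoter with the highest-ranked member interval in both muscle lists.
*Ak1*, promoter: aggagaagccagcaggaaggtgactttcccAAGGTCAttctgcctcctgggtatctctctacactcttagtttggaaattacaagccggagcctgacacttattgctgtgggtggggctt

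*Ampd1* (chromosome 3, NM_001033303, plus strand, TSS at 103074014), the AMP deaminase of skeletal muscle, was listed once within 20 kb, as 1 interval of the ERRα 3SA muscle list, and had 0 elsewhere. It lay in intron 3 at 5549 bp, was 351 bp wide, and ranked 1587 (top 3.13%). The nearest WT muscle interval centre was 23109 bp away. It was the only top 5% interval of a member in ERRα 3SA muscle that had no base in common with a WT muscle interval, the other 9 having some. Among all genes, 84.4% of the top 5% intervals of that list within 20 kb had bases in common with WT muscle. Its sequence is shown, with the core in capitals, because the interval was listed in ERRα 3SA muscle alone (chr3:103079413-103079712, forward strand).
*Ampd1*, intron 3: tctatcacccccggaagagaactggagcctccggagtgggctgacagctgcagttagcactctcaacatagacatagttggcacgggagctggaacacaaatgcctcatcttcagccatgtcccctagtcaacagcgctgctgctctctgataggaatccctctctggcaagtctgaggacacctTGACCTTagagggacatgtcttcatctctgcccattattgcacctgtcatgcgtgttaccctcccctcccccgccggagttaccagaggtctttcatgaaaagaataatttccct

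*Mb* (chromosome 15, minus strand) has an upstream TSS at 77050668 (NM_013593) and downstream ones at 77022787 and 77022727 (NM_001164047 and NM_001164048), and its strong intervals were annotated to the downstream ones. In WT muscle, 4 intervals lay at 1291, 2835, 7779 and 18916 bp and ranked 10219 (top 40.2%), 946 (top 3.72%), 951 (top 3.74%) and 3962 (top 15.6%). In ERRα 3SA muscle, 8 intervals were listed. Those at 1232, 2917, 7591 and 18846 bp were partners of the 4 WT intervals, with centres 59, 82, 188 and 70 bp apart, and ranked 780 (top 1.54%), 1218 (top 2.4%), 875 (top 1.73%) and 1356 (top 2.68%). The other 4 lay at -4633 and 9207 bp of the downstream TSSs and at -707 and -2296 bp of the upstream TSS. They ranked 11987 to 32824 and had no WT partner, and the interval at 9207 bp was lowest-scoring. Of all peaks of that list within 20 kb, 12.9% had a partner in WT muscle. A count of 8 or more was reached by 0.324% of all genes in that list. Among the 4 pairs annotated to *Mb*, the ranks of the genotypes lay farthest apart at the interval nearest the downstream TSSs, in intron 1 of NM_001164047, 10219 in WT and 780 in ERRα 3SA, over 1178 bp in common.

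In liver, *Mb* had only the interval farthest from its TSS, between genes about 19 kb downstream, at 18856 bp in WT (rank 4147, top 19.0%) and 19151 bp in ERRα 3SA (rank 7231, top 24.9%). This place was covered in all 4 lists, and WT muscle and WT liver centres were 60 bp apart. No ERRE occurs within 20 kb of any *Mb* TSS, but its intervals covered 11 distinct core matches, 9 of them in more than 1 list. The pair of cores in the interval of all 4 lists is shown with 11 bases on either side, and the 300 bp around the centre of the best-ranked interval, in intron 1 of NM_001164047, follow (chr15:77021345-77021644, forward strand). Capitals mark the core on either strand.
*Mb* distal, chr15:77003663-77003691: gtgacttgccaAAGGTCAcacagcaagag
*Mb* distal, chr15:77003988-77004016: ccttcatgcacTGACCTTggctcaggatt
*Mb*, intron 1: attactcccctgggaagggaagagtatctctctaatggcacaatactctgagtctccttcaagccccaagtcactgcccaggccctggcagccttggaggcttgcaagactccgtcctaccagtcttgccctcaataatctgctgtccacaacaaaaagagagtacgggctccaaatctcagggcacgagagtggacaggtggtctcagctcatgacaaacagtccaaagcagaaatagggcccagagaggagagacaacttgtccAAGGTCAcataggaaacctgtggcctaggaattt

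Side by side, the best interval of each member bound in both muscle lists had the smaller top percentage in ERRα 3SA. The values in WT and ERRα 3SA were 2.16% and 0.685% for *Ckm*, 1.6% and 0.663% for *Ckmt2*, 0.849% and 0.545% for *Ak1* and 3.72% and 1.54% for *Mb*. The ERRα 3SA list is longer, which lowers the percentage of any given rank. By rank, *Ckm* (549 and 347), *Ckmt2* (407 and 336) and *Mb* (946 and 780) stood nearer the top in ERRα 3SA. *Ak1* (216 and 276) stood nearer the top in WT. The best intervals of the lists were not always at the same place. For *Mb*, the best WT interval lay at 2835 bp, and its ERRα 3SA partner ranked lower, at 1218. The best ERRα 3SA interval of *Mb* lay at 1232 bp, and its WT partner ranked 10219. For *Ckm*, the best ERRα 3SA interval covered the best WT interval and another WT interval. In liver the best values ran from 19.0% for *Mb* in WT to 80.6% for *Ckmt2* in ERRα 3SA.

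**Figure D2:**
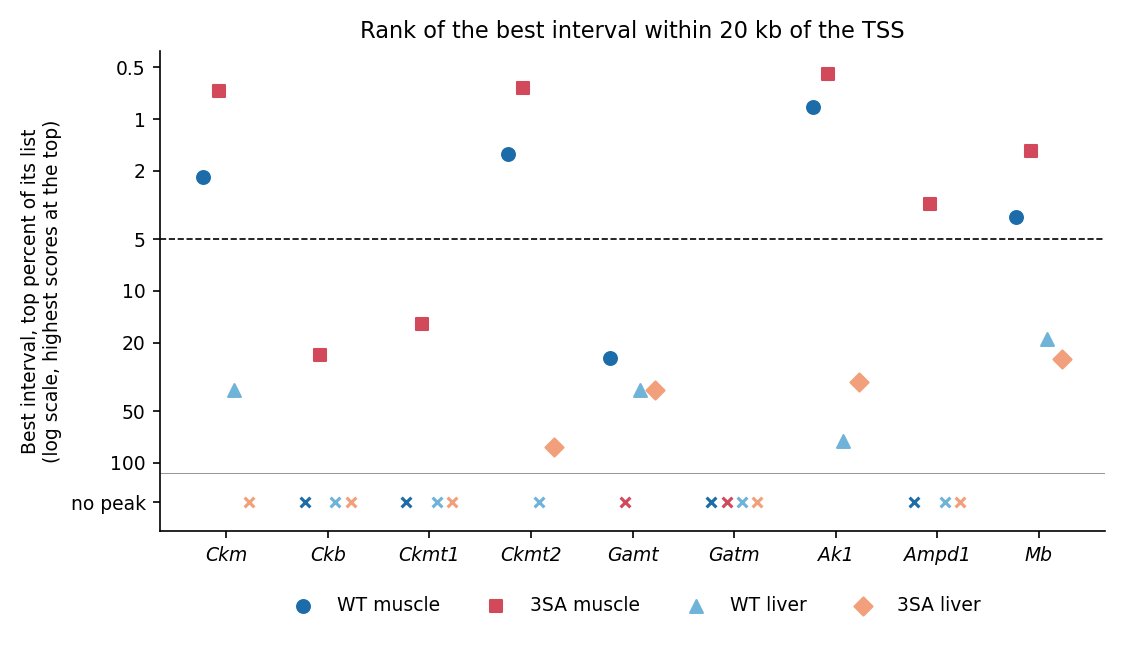
Best interval within 20 kb of the TSS for each member and list, as the top percentage of its list on a log axis with the highest scores at the top; crosses mark lists without an interval and the dashed line the top 5%. The 9 points above the dashed line are muscle points, 4 WT and 5 ERRα 3SA, and all liver points lie between 19.0% and 80.6%.

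Of the member intervals, 9 of 18 in WT muscle and 9 of 27 in ERRα 3SA muscle had a partner with a centre at most 300 bp away in the other genotype, against 23.4% and 12.9% of all peaks within 20 kb. In liver, 3 of 5 (WT) and 3 of 8 (ERRα 3SA) did, against 49.2% and 34.2%. Members with a shared interval numbered 4 in muscle (*Ckm*, *Ckmt2*, *Ak1* and *Mb*) and 3 in liver (*Gamt*, *Ak1* and *Mb*), where 10.3% and 17.1% of all genes had one. Higher scores go with sharing: 81.8% of all WT muscle peaks in the top 5% were shared. Of the 7 member intervals in that group, 3 were shared by their centres. All 7 had bases in common with an ERRα 3SA interval, as 97.9% of all WT muscle peaks in the top 5% had. In the top 5% of ERRα 3SA muscle, 6 of 10 member intervals were shared by their centres, against 70.3% of all peaks there. Between tissues, 4 members shared an interval in WT (*Ckm*, *Gamt*, *Ak1* and *Mb*) and 2 in ERRα 3SA (*Ckmt2* and *Ak1*), where 6.94% and 12.2% of all genes had one. With 1 shared base as the rule, the ERRα 3SA count was 3, since the *Mb* centres of muscle and liver were 305 bp apart.

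The ERRE was present in the 300 bp around the centre of 3 of 18 member intervals in WT muscle and 2 of 27 in ERRα 3SA muscle, and of 1 of 5 and 1 of 8 in the WT and ERRα 3SA livers. Over all peaks within 20 kb the shares were 4.45% (95% Wilson interval 4.11 to 4.81), 4.84% (4.58 to 5.13), 15.1% (14.5 to 15.8) and 14.9% (14.3 to 15.4). The WT muscle intervals with an ERRE were those of *Ckm* at 2756 and 4063 bp and of *Ckmt2* at 28 bp, all in the top 5%, where 15.5% (13.2 to 18.0) of all WT muscle peaks held it. In the top 5% of ERRα 3SA muscle, 1 of 10 member intervals held it, against 17.3% (15.5 to 19.3) of all peaks there. In ERRα 3SA muscle as a whole, 4 intervals held an ERRE somewhere in the called bases, the wide *Ckm* interval and the *Ckmt1* promoter being added to both of *Ckmt2*. The looser motif TNAAGGTCA added no member interval in any list.

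The core AAGGTCA was found more widely, in 7 of 18 and 12 of 27 windows in muscle and in 3 of 5 and 3 of 8 in liver, with 13.8%, 15.2%, 35.8% and 35.5% of all peaks. Among member intervals in the top 5% it was in 5 of 7 (WT muscle) and 8 of 10 (ERRα 3SA muscle), and 41.9% and 44.7% of all top 5% peaks held it. The E-box CAGCTG, bound by factors such as MyoD, was in 8 of 18 and 12 of 27 muscle windows and in 1 of 5 and 2 of 8 liver windows, with 21.5%, 22.8%, 19.0% and 18.8% of all peaks. A MEF2 motif was in no member window, and in 1.09%, 1.09%, 1.56% and 1.48% of all windows. The core lies within both longer motifs, and CAGCTG is a palindrome, counted once.

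Looked at from the sequence, 19 ERREs lay within 20 kb of a RefSeq TSS of a member, 4 at *Ckmt1*, 3 each at *Ckm*, *Ckmt2* and *Ampd1*, 2 each at *Gamt* and *Ak1*, 1 each at *Ckb* and *Gatm* and 0 at *Mb*. Of them, 8 lay inside an interval of at least 1 list, 3 in WT and 7 in ERRα 3SA muscle, and 2 in liver for each genotype. For all 18620 ERREs within 20 kb of protein-coding TSSs the shares were 5.48%, 10.8%, 13.4% and 18.1%, and 24.4% in any list. The 3 ERREs listed in WT muscle were all listed in ERRα 3SA muscle too. None of the 3 at *Ampd1* was in an interval.

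**Figure D3:**
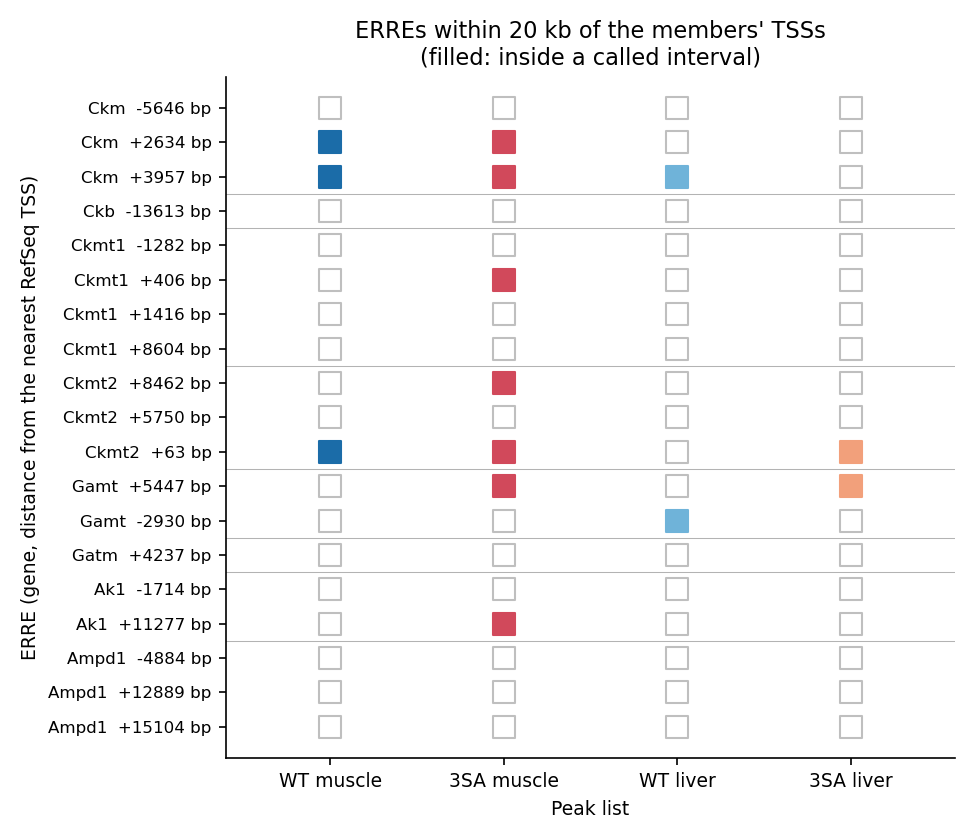
The 19 ERREs within 20 kb of the members' TSSs, 1 row each by gene and distance in bp from the nearest RefSeq TSS, and the 4 lists in columns; a filled square marks an ERRE inside a called interval. The muscle columns have 3 (WT) and 7 (ERRα 3SA) filled squares and the liver columns 2 each.

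Of 26 further genes of the same pathways, 14 (WT) and 16 (ERRα 3SA) were listed within 20 kb in muscle, with 8 and 7 in the top 5%. Of all genes, 34.5% and 48.0% were listed there, and 3.15% and 5.5% were in the top 5%. Liver listed 10 (WT) and 17 (ERRα 3SA) of the 26, with 4 and 4 in the top 5%. The liver shares of all genes were 30.0% and 37.7%, and 2.7% and 3.49% in the top 5%. *Slc6a8*, the creatine transporter, had its best interval 12596 bp downstream in WT (rank 1186, top 4.66%) and at 12530 bp in ERRα 3SA (rank 733, top 1.45%). *Adssl1*, the muscle adenylosuccinate synthase that feeds AMP back after deamination, had an intron 2 interval at rank 247 in WT muscle (top 0.971%) and rank 809 in ERRα 3SA muscle (top 1.6%). *Slc25a4* and *Slc25a5*, which exchange ADP for ATP across the inner mitochondrial membrane, ranked 238 and 186 in WT muscle and 288 and 366 in ERRα 3SA muscle. *Vdac1*, an outer membrane channel, had its best intervals at different places, at 313 bp (rank 773) in WT muscle and 8708 bp (rank 539) in ERRα 3SA muscle.

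*Ampd3*, another AMP deaminase, was high in both muscle lists at its TSS, at rank 1058 (top 4.16%) in WT and 1356 (top 2.68%) in ERRα 3SA. *Adk*, which phosphorylates adenosine to AMP, had an intron 1 interval in the top 5% of every list, at ranks 486, 402, 176 and 420 in the order WT muscle, ERRα 3SA muscle, WT liver and ERRα 3SA liver, and *Slc25a5* also did, at ranks 523 and 349 in liver. Of the nucleoside diphosphate kinases, *Nme2* had an interval in all 4 lists, at rank 719 (top 2.83%) in WT muscle, 19604 (top 38.7%) in ERRα 3SA muscle, 4981 (top 22.8%) in WT liver and 3042 (top 10.5%) in ERRα 3SA liver. *Nme1* had none in WT muscle, and ranked 4249 (top 8.39%) in ERRα 3SA muscle and 864 and 1269, both in the top 5%, in WT and ERRα 3SA liver. The globins *Cygb* and *Ngb* had no interval in WT muscle, and 3 each in ERRα 3SA muscle, the best being that of *Cygb* at rank 2721 (top 5.37%). In liver *Cygb* had none, and *Ngb* had 1 in each list, at rank 7108 (top 32.6%) in WT and 15059 (top 51.9%) in ERRα 3SA. *Ak4*, *Ak5*, *Ak6*, *Ak9*, *Adsl*, *Adss* and *Nt5c1a* had no interval in any list.

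**Figure D4:**
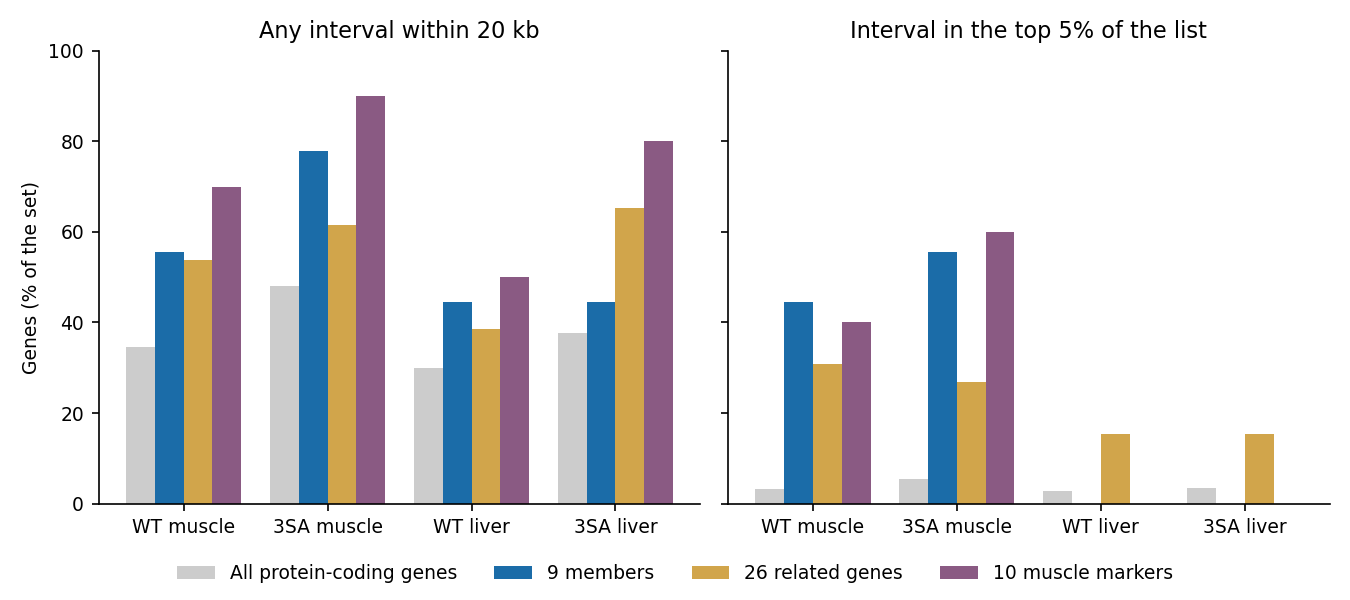
Share of each gene set with an interval within 20 kb of the TSS (left) and with one in the top 5% of the list (right), in percent of the set, for the 9 members, 26 further genes of the pathways, 10 skeletal muscle genes and all protein-coding genes; bars are counts in 1 library each and have no error. On the right, the members' bars stand for 4 and 5 genes in muscle and 0 in liver, and those of the muscle genes for 4, 6, 0 and 0.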

How the data were processed

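The data were ERRα ChIP-seq peak lists of 2 tissues and 2 genotypes, with 1 list for each pair. The matching input samples have no list here. Per the labels, each library pooled 3 ChIPs, whereas the study's methods describe 4. The authors used Trimmomatic 0.36 for trimming, BWA 0.7.12 for mapping to mm10 and Picard 2.0.1 against duplicates, called peaks with MACS2 2.1.1.20160309 against input DNA at a stringent FDR, removed mitochondrial and scaffold peaks, and annotated the rest with HOMER 4.9.1. These versions are from the submitters' processing notes. The deposited score has no fixed range and was used only for ranks. The deposited distance to the TSS is in bp from the centre of the interval. The deposited GC and CpG contents are fractions of the interval. Depth is unknown, and the precision it gives could not be computed. The methods describe windows of fixed width around summits, but the deposited intervals vary in width, so interval centres were used.

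Sequences were read from the RefSeq genome GRCm38.p6 (strain C57BL/6J) with pysam 0.24.0. All intervals lay inside its chromosomes, and the GC content recomputed from it equalled the listed one for all 62 member intervals. Peaks were called shared when centres over whole lists lay at most 300 bp apart, and motifs were searched on both strands in the 300 bp around the centre. The confidence level of Wilson intervals is 95%, and they cover counting error only. The functions were tested on simulated data. No test between groups was made, as each has 1 library. The members, the 26 further genes, the markers and the motifs were chosen with earlier results of these data known. The count of ERREs and cores from the sequence was added after the intervals were seen. Named genes were all members, the further genes in the top 5% of any list (with 1 exception, not reported here), and neighbours to which an interval within 20 kb of a member was assigned; *Alb*, the globins and the further genes with no interval were named after their values were seen. Alternatives were distances of 5 and 50 kb, scores of at least 50 and 100, lists of equal length, assignment by position, merging of intervals within 1000 bp, and other rules for sharing and for the motif.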

Additional observations from a re-analysis of the deposited data

Results flagged for a closer look

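*Gamt* drew attention because its genotype difference pointed in opposite directions in the tissues: the number of intervals in ERRα 3SA minus that in WT was -1 in muscle (1 in WT, 0 in ERRα 3SA) and 1 in liver (2 in WT, 3 in ERRα 3SA). Each value is from 1 library per genotype and tissue, and the difference was not tested. By position, an ERRα 3SA muscle interval annotated to *Ndufs7* covers the ERRα 3SA liver interval of *Gamt* at 5152 bp.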

How the results depend on the processing

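Of 76 recomputed values for 20 results, 58 stayed within 1.5 times the reported one. Member intervals moved with a minimum score of 50, from 18 to 10 in WT muscle, 27 to 12 in ERRα 3SA muscle, 5 to 1 in WT liver and 8 to 4 in ERRα 3SA liver. With a minimum of 100 they numbered 7, 10, 0 and 0. Members with an interval in WT liver went from 4 to 1 and 0 at these scores, and those in ERRα 3SA liver from 4 to 0 at 100. The muscle lists kept 4 (WT) and 5 (ERRα 3SA) members at both. A fixed score marks a different depth in each list: a score of 49 was top 15.5% in ERRα 3SA muscle and top 37.6% in WT liver. No share of all genes was computed at these scores, so the counts do not compare the tissues. A distance of 5 kb left 16 of 27 intervals in ERRα 3SA muscle, merging left 11 of 18 in WT muscle, and lists of equal length left 5 of 8 in ERRα 3SA liver. With lists of equal length, ERRα 3SA muscle had 20 of its 27 intervals, close to the 18 of WT muscle. WT liver had 5 at that length. The cut of the ERRα 3SA muscle list fell among peaks tied at a score of 36, from rank 19604 on. Tied peaks were kept in listed order, so the count of 20 depends on that order and could have been lower. In the whole interval, ERREs were in 4 in place of 2 intervals in ERRα 3SA muscle and in 2 in place of 1 in ERRα 3SA liver. Centres within 100 bp left 2 of 4 members shared in muscle, and a score of 50 in both lists left 1 of 3 in liver. The whole interval is usually wider than the 300 bp searched, and the other settings named so far use fewer peaks or a stricter rule. By position, members with an interval numbered 6, 8, 5 and 6 in WT muscle, ERRα 3SA muscle, WT liver and ERRα 3SA liver. By that rule an interval can count for several genes, and no share of all genes was computed with it. By annotated gene, and with genes named in any list as the denominator, the background shares were 45.1%, 63.5%, 39.2% and 49.2%. These are therefore not a background for the counts by position. No paired analysis was possible because each group has 1 library and the results come from no test.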

Other observations

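The ERREs covered in 3 lists at *Ckm* and at *Ckmt2* both span a splice donor, with 5 bases in the exon and 4 in the intron on the gene's strand. Of the 18620 ERREs within 20 kb of protein-coding TSSs, 81 are placed in this way, and 2 of them belong to members. Of those 81, 29 (35.8%) were inside an interval of at least 1 list, compared with 24.4% of all ERREs. In the WT muscle, ERRα 3SA muscle, WT liver and ERRα 3SA liver lists were 8, 17, 13 and 17 of them. These are 9.88%, 21.0%, 16.0% and 21.0%, where all ERREs had 5.48%, 10.8%, 13.4% and 18.1%. These values were computed after the positions at *Ckm* and *Ckmt2* were seen. The placement was defined from those 2 ERREs, which are among the 29, so the shares are no separate support for them.

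Intervals of members covered 24 distinct AAGGTCA matches, of which 16 were covered in more than 1 list and 3 in all 4. Those 3 are the match at the *Ak1* promoter and the pair in the distal *Mb* interval. Intervals that overlap between lists can hold the same matches, and no such count was made over all peaks.

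Inside *Mb*, in intron 1 of NM_013593, WT muscle had an interval at rank 2194 (top 8.63%) and ERRα 3SA muscle had an overlapping one at rank 19604 (top 38.7%), but both were annotated to *Apol6*, -8644 and -8797 bp from its TSS, and so were not counted for *Mb*.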
